A study of Mus musculus with 9 samples.

Results

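Of the mouse genes listed under a placeholder name, made of Gm and a number or ending in Rik, 79 had counts mainly in 1 subset of dendritic cells (DC). These 79 genes were chosen by their measured values. A gene was taken when its mean level in cDC1, cDC2 or pDC was at least 2 CPM (counts scaled by the total of the library) and at least 8 times its mean in each of the other subsets. Of 15978 Gm and Rik genes among 39179 genes listed, 11 met these limits in cDC1, 18 in cDC2 and 50 in pDC. Because the levels made the choice, the differences between subsets given for these genes are a description and carry no test, and the libraries of the high subset lie above the rest by construction.

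The cells came from spleens of unstimulated C57BL/6J mice aged 6 to 12 weeks, and RNA from each of the 3 DC subsets was sequenced in 3 libraries. The study describes pools of 15 to 17 mice for its sorted splenic DC, without saying which library came from which pool, and libraries with the same replicate number share a date code. The cDC1 are conventional DC sorted as CD8-positive and the cDC2 as CD8-negative, and the pDC are plasmacytoid DC with intermediate CD11c. In pools of sorted cells, a lower level of a transcript in a subset and fewer cells that carry it cannot be told apart.

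Placeholder names are given to mouse genes that were found by sequence before any function was known. Gm names come from predicted gene models and Rik names from cDNA clones, and behind both stand protein-coding genes, long non-coding RNAs, which are not translated, and pseudogenes, which are copies of other genes. cDC1 are known for presenting antigen to CD8+ T cells, cDC2 for priming CD4+ T cells and pDC for their large output of type I interferon. Many genes induced by interferon carry an interferon-stimulated response element (ISRE) near their start, a site bound by interferon regulatory factors and by the STAT complex that interferon activates.

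Libraries held 15806597 to 32453789 counts on genes, so that 3 counts, taken as the floor of detection, correspond to 0.0924 to 0.190 CPM, which covers counting error only. Genes known to mark each subset followed the labels in cDC1, where 9 of 10 listed genes were higher than in both other subsets (edgeR's quasi-likelihood test, adjusted p under 0.05 in both contrasts; the exception was Batf3), and in pDC, where 11 of 11 were. In cDC2, 4 of 9 were, namely Sirpa, Itgam, Clec4a4 and Esam, while Cd209a, Mgl2, Clec12a and Cd4 had their highest mean in pDC and Irf4 did not pass against pDC. Of all 11970 protein-coding genes tested, 7.70%, 17.6% and 7.20% were called in this way in cDC1, pDC and cDC2. Cd8a, Itgam and Bst2 encode proteins that the study names for its sort, and the lists were made with earlier results of these data known, so this check is not independent. Between replicates, the chi-square of the counts over genes was 10.6 to 67.7 times its degrees of freedom, so they differed beyond counting error. It was 10.6 to 19.8 times for replicates 1 and 2 of a subset and 42.0 to 67.7 times for pairs with replicate 3. The 79 genes made up 12.5% of the 88 genes of any name that met the same limits in cDC1, 12.2% of 147 in cDC2 and 9.86% of 507 in pDC, and Gm and Rik genes were 8.84%, 8.92% and 9.32% of all genes at 2 CPM or more in these subsets.

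The promoters of the cDC2 genes are shown first, since the letters of the ISRE recurred in them. The motif was searched on both strands as GAAANNGAAA in the 300 bases around each start that RefSeq places on GRCm38.p6, from 250 bases before it to 50 after it. It was present in 3.44% of 32851 RefSeq promoters. Among the genes described here it was present in 7 of 13 promoters of cDC2 genes (53.8%, from the 12 genes whose promoters were searched). It was present in 1 of 6 promoters of cDC1 genes (16.7%) and in 1 of 26 of pDC genes (3.85%). Gm14328 was among the cDC2 genes whose promoters were not searched. The cDC2 genes with the motif were I830012O16Rik, Gm4955, Gm26687, Gm5150, 2610528A11Rik and Gm14446, the last at both of its starts, so that 6 of the 12 genes held it. Gm14446 and I830012O16Rik are neighbours of one gene family and do not count as independent. A match of letters is a description of the sequence and not a bound site. The promoters of 4 genes follow, 5′ to 3′ on the strand of the gene, with the motif in capitals on whichever strand it was found. They are those of I830012O16Rik (now named Ifit3b, chr19:34607707-34608006, plus strand), Gm4955 (now Ifi206, chr1:173491269-173491568, minus strand), Gm26687 (now Ptgs2os2, chr1:150164899-150165198, minus strand) and the cDC1 gene A530099J19Rik (now Gpr141b, chr13:19732902-19733201, minus strand).
Ifit3b: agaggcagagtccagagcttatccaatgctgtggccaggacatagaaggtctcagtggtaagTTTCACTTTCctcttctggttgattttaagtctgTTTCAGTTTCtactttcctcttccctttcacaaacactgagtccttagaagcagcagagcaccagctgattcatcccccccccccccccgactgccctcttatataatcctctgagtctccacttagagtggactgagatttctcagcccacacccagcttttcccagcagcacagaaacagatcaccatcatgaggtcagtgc
Ifi206: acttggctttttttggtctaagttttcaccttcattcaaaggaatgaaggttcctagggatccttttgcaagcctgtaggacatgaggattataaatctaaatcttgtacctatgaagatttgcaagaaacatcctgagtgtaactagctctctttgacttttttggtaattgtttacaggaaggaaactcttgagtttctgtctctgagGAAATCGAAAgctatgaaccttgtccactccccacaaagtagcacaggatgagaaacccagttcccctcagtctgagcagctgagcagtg
Ptgs2os2: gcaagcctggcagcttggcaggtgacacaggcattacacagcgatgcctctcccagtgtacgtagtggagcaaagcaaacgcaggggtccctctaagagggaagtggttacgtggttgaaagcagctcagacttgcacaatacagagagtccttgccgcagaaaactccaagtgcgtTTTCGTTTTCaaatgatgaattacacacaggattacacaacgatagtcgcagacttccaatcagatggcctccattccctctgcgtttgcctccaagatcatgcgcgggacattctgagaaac
Gpr141b: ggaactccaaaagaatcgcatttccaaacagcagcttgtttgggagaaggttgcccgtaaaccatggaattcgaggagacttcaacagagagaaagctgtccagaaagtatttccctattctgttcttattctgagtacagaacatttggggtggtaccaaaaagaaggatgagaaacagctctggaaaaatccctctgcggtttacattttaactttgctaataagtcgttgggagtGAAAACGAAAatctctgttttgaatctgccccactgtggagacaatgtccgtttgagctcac

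The promoter of Ifit3b held the motif at 2 places, the farther of which began 188 bases before the start, and the promoters of Ifi206, Ptgs2os2 and Gpr141b held it once, at 40, 73 and 12 bases before the start. 3 other motifs were searched in the same way. The E-box CANNTG, which Tcf4, the factor that defines pDC, can bind, was present in 73.1% of pDC promoters and in 72.3% of all promoters. The letters TGTGGT of the RUNX site were present in 15.4% of pDC promoters against 16.8% of all, and the ETS letters GAGGAA in 53.8% of cDC2 promoters, 33.3% of cDC1 promoters and 19.2% of pDC promoters against 28.3% of all.

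The 11 cDC1 genes ranged from 3.18 to 666 CPM in cDC1, with a median of 41.5. A530099J19Rik, now named Gpr141b after an orphan G protein-coupled receptor (chr13:19727426-19732951, minus strand), was the most abundant of them. It stood at 601, 656 and 740 CPM in cDC1 replicates 1, 2 and 3, at 27.4, 52.8 and 46.1 in cDC2 and at 5.05, 1.32 and 3.92 in pDC. 5430435G22Rik, now Rab7b, a small GTPase of late endosomes (chr1:131688695-131715439, plus strand), stood at 513, 573 and 436 CPM in cDC1, at 33.6, 52.4 and 59.3 in cDC2 and at 8.07, 2.42 and 0.175 in pDC. The mean of Gpr141b was thus 15.8 times and that of Rab7b 10.5 times higher in cDC1 than in cDC2, and each pDC library lay lower again. Gm8221, a pseudogene within the apolipoprotein L cluster (chr15:77621834-77626637, plus strand), stood at 389, 333 and 270 CPM in cDC1, at 46.2, 30.4 and 30.6 in cDC2 and at 5.24, 1.00 and 4.15 in pDC. 2310031A07Rik, a long non-coding RNA that overlaps Med7 on the other strand and lies next to Havcr2 (chr11:46440362-46447248, minus strand), stood at 82.4, 84.4 and 109 CPM in cDC1, at 2.38, 4.33 and 6.02 in cDC2 and at 0.955, 0.369 and 0.292 in pDC. The choice itself set cDC1 above the other subsets. In each of these 4 genes, every cDC2 library also lay above every pDC library.

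Gm12551, a pseudogene near the lipid droplet gene Plin2, was the most even of the cDC1 genes, at 67.5, 64.2 and 66.3 CPM in cDC1, at 4.52, 5.43 and 3.58 in cDC2 and at 1.05, 0.369 and 3.27 in pDC. Gm3336, annotated as protein-coding, stood at 36.3, 39.9 and 48.2 CPM in cDC1, at 1.76, 2.90 and 2.88 in cDC2 and at 0.431, 0.0527 and 0 in pDC. The replicates of cDC1 thus stayed within 1.45 times of each other in these genes and in the 4 above. In pDC, Gm12551 ran from 0.369 to 3.27 CPM and Gm3336 from 0 to 0.431. 1700009J07Rik stood at 27.9, 29.9 and 30.9 CPM in cDC1, at 1.86, 3.81 and 2.39 in cDC2 and at 0.216, 0 and 0.877 in pDC. Gm11837, antisense to Necab1, stood at 16.5, 17.4 and 22.2 CPM in cDC1, at 0.358, 0.330 and 0.868 in cDC2 and at 0.216, 0.0527 and 0 in pDC. It was 36.1 times higher in cDC1 than in cDC2, the widest gap among the 10 cDC1 genes whose level in cDC2 was above the floor, and Necab1 itself was at 0 in all 9 libraries. The remaining cDC1 genes were E030013I19Rik at 10.3 ± 1.48 CPM (SD, n = 3), antisense to the integrin gene Itga8, 1600029I14Rik at 9.68 ± 1.90, now named Nme9 after the nucleoside diphosphate kinases, and D030025P21Rik at 3.18 ± 0.628, antisense to Ltbp2. In cDC2 and pDC together D030025P21Rik had 3 counts in all, so it was at least 25.7 times higher in cDC1 than the floor of cDC2. All 11 had cDC2 as the next subset.

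**Figure D1:**
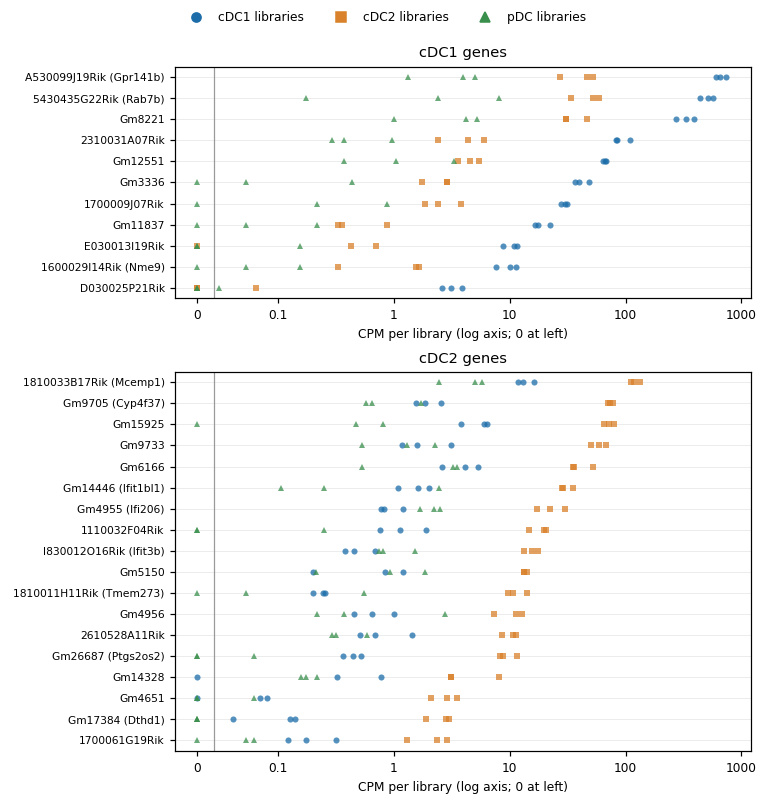
Level of each of the 11 cDC1 genes (upper panel) and 18 cDC2 genes (lower panel) in every library, in CPM on a log axis with 0 drawn at the left edge; names from GENCODE M21 or RefSeq are in brackets, and circles, squares and triangles are cDC1, cDC2 and pDC libraries. The cDC1 genes run from 666 CPM (Gpr141b) to 3.18 CPM on average, and in most of them the cDC2 libraries lie between the cDC1 and pDC libraries.

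The 18 cDC2 genes were lower, at 2.18 to 121 CPM in cDC2 with a median of 14.5, and 12 of them are annotated as protein-coding. 1810033B17Rik, now Mcemp1, a membrane protein first described in mast cells (chr8:3665754-3669259, plus strand), stood at 133, 112 and 118 CPM in cDC2, at 16.3, 11.8 and 13.1 in cDC1 and at 4.99, 2.47 and 5.79 in pDC. Gm9705, now the cytochrome P450 gene Cyp4f37 (chr17:32621309-32636184, plus strand), stood at 72.6, 70.4 and 78.5 CPM in cDC2, at 1.85, 1.54 and 2.53 in cDC1 and at 0.647, 0.579 and 1.70 in pDC. Its gap to the next subset (37.4 times) was wider than that of Mcemp1 (8.83 times), which lies just inside the 8-fold limit. Gm15925, a pseudogene of the paired immunoglobulin-like receptors, stood at 71.4, 79.0 and 65.4 CPM in cDC2, at 6.04, 3.80 and 6.33 in cDC1 and at 0.801, 0.474 and 0 in pDC. Gm9733, next to the signal regulatory protein gene Sirpb1a, stood at 59.3, 50.2 and 68.3 CPM in cDC2, at 3.11, 1.17 and 1.58 in cDC1 and at 1.29, 0.527 and 2.28 in pDC. In Gm9733 the cDC1 and pDC libraries overlapped, and in Gm15925 they did not.

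Gm6166, a single-exon copy of the fatty acid-binding protein gene Fabp5, stood at 51.8, 36.2 and 35.3 CPM in cDC2, at 5.34, 2.59 and 4.11 in cDC1 and at 3.51, 3.26 and 0.526 in pDC. Gm14446, now Ifit1bl1, a member of the Ifit family of interferon-induced genes (chr19:34592891-34601956, minus strand), stood at 28.3, 28.6 and 35.2 CPM in cDC2, at 2.02, 1.62 and 1.08 in cDC1 and at 0.247, 0.105 and 2.46 in pDC. pDC replicate 3 of Ifit1bl1 thus lay above its cDC1 libraries and the other pDC libraries below them. Gm4955, now Ifi206, of the interferon-inducible PYHIN family of DNA-binding proteins (chr1:173468485-173491041, minus strand), stood at 17.1, 22.3 and 29.9 CPM in cDC2, at 1.19, 0.769 and 0.822 in cDC1 and at 1.69, 2.21 and 2.51 in pDC. 1110032F04Rik, a single-exon gene on chromosome 3, stood at 19.7, 14.7 and 20.7 CPM in cDC2, at 1.89, 1.13 and 0.759 in cDC1 and at 0.247, 0 and 0 in pDC. The lowest subset was thus cDC1 for Ifi206 and pDC for 1110032F04Rik. I830012O16Rik (Ifit3b) stood at 15.5 ± 2.18 CPM (SD, n = 3) in cDC2 against 1.02 ± 0.435 in pDC and 0.507 ± 0.161 in cDC1, and it lies 6.01 kb from Ifit1bl1 on chromosome 19 on the other strand.

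The other 9 cDC2 genes ran from 13.6 to 2.18 CPM. Gm5150 stood at 13.6 ± 0.467 CPM (SD, n = 3), 615 kb from Gm9733 on chromosome 3, and 1810011H11Rik, now the transmembrane protein gene Tmem273, at 11.5 ± 2.24, which was 49.2 times its mean in cDC1 and the widest gap among the 17 cDC2 genes whose next subset was above the floor. Gm4956 stood at 10.5 ± 2.76, 2610528A11Rik at 10.2 ± 1.42 and Gm26687, now Ptgs2os2, at 9.50 ± 1.83. Ptgs2os2 is named for its place beside Ptgs2, the gene of cyclooxygenase-2. Gm14328, a further single-exon copy of Fabp5, stood at 4.79 ± 2.90, with 8.14 CPM in cDC2 replicate 3 and 3.12 in each of replicates 1 and 2. Gm4651 (2.83 ± 0.719), Gm17384 (2.55 ± 0.570, now the death domain gene Dthd1) and 1700061G19Rik (2.18 ± 0.810, which RefSeq names Acsbg3 after the acyl-CoA synthetases) lay close to the limit of 2 CPM. cDC1 was the next subset for 14 of the 18, and pDC for Ifi206, Ifit3b, Gm5150 and Gm4956. Markers of other cells also had their highest mean in cDC2, at 43.7 ± 16.9 CPM for the macrophage gene C1qa (9.18 ± 4.86 in cDC1, 15.4 ± 10.4 in pDC), 15.3 ± 1.20 for Spic (6.51 ± 1.65, 4.71 ± 1.85) and 6.61 ± 4.13 for the natural killer cell gene Ncr1 (1.26 ± 0.152, 1.52 ± 0.460). The summed macrophage list of 5 genes ran from 98.9 to 192 CPM in cDC2 libraries, from 77.9 to 122 in cDC1 and from 17.9 to 103 in pDC, the natural killer list of 5 from 20.2 to 79.7, 7.97 to 25.2 and 9.90 to 41.5, and the T cell list of 6 from 33.2 to 52.2, 14.6 to 18 and 16.1 to 21.2. No gene of these lists was at 0 throughout a subset, and their part in the cDC2 levels was not tested.

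The 50 pDC genes ran from 2.08 to 264 CPM in pDC with a median of 7.72. Gm21762, annotated as protein-coding (chr13:120214593-120215947, minus strand), stood at 225, 227 and 339 CPM in pDC, at 0.454, 0.243 and 0.886 in cDC1 and at 0.911, 0.110 and 0.977 in cDC2, a gap of 396 times. Gm5884, a single-exon copy of Tom1, a gene of endosomal sorting (chr6:128644913-128646391, plus strand), stood at 124, 130 and 157 CPM in pDC, at 7.96, 7.57 and 10.1 in cDC1 and at 8.79, 7.48 and 11.7 in cDC2. The gap of Gm5884 was 14.7 times, and its cDC1 and cDC2 libraries overlapped. 2810442I21Rik, now Eldr, a long non-coding RNA beside the growth factor receptor gene Egfr (chr11:16935154-16951282, minus strand), stood at 86.5, 100 and 47.3 CPM in pDC, at 2.09, 2.35 and 2.02 in cDC1 and at 1.30, 1.47 and 0.922 in cDC2. Gm12253, annotated as protein-coding, stood at 55.8, 59.3 and 63.4 CPM in pDC, at 0.0698, 0.0405 and 0 in cDC1 and at 0.260, 0 and 0 in cDC2. Of the 6 conventional DC libraries, 3 had no count of Gm12253, and its mean in pDC was 686 times that in cDC2, which rested on 8 counts in replicate 1. This was the widest gap among the 36 pDC genes whose next subset was above the floor.

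Gm13919, antisense to Ldlrad3, stood at 59.4, 52.8 and 40.0 CPM in pDC, at 0.349, 0.324 and 0.127 in cDC1 and at 0.195, 0.183 and 0 in cDC2. 1810034E14Rik, antisense to the phosphatase gene Cdc14b, stood at 48.9, 60.2 and 42.0 CPM in pDC, at 1.95, 1.62 and 0.949 in cDC1 and at 2.47, 1.94 and 6.89 in cDC2. The 6.89 CPM in cDC2 replicate 3 was the highest value of 1810034E14Rik outside pDC. 1700024P16Rik, now Fyb2, which encodes an adaptor protein of the FYB family, stood at 45.4, 58.3 and 32.4 CPM in pDC, at 0.0349, 0 and 0.127 in cDC1 and at 0.228, 0.110 and 1.36 in cDC2. Gm14207, a non-coding transcript whose start lies 410 bases from that of the Notch ligand gene Dll4 (chr2:119321187-119326194, minus strand), stood at 39.2, 41.1 and 35.2 CPM in pDC, at 0.524, 0.243 and 0.0633 in cDC1 and at 0.521, 0.257 and 0.163 in cDC2. These 4 genes were 13.4 to 190 times higher in pDC than in the next subset.

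Of the 42 other pDC genes, 11 stood above 11 CPM. Gm11647, now Arhgap27os2 and antisense to Arhgap27, stood at 30.1 ± 3.50 CPM (SD, n = 3), Gm5864 at 20.6 ± 3.36, and 1810065E05Rik, 6.54 kb from Gm12253 on chromosome 11, at 17.3 ± 7.58, with 26.0 CPM in pDC replicate 3. Gm11346 stood at 15.9 ± 1.82, Gm15326 at 14.8 ± 0.827, Gm14161 at 14.2 ± 2.06 and Gm14964, antisense to the neurexin gene Nrxn2, at 13.5 ± 2.69. Gm26947 (12 ± 3.53), Gm12908 (11.4 ± 2.38, now Lrp8os3), Gm10109 (11.3 ± 1.29, overlapping the kallikrein gene Klk1 on the other strand) and 1700026L06Rik (11.1 ± 3.16, now Spaca9) followed. Between 8 and 11 CPM lay Gm10497 at 10.8 ± 2.82, now Runx2os1 and antisense to the pDC transcription factor gene Runx2, Gm5514 at 10.3 ± 0.760, a copy of the lactate dehydrogenase gene Ldhb, A430035B10Rik at 9.89 ± 1.67, Gm19705 at 8.75 ± 0.237, Gm16710 at 8.51 ± 3.12 and Gm829 at 8.29 ± 1.42. Gm16710 is the immunoglobulin variable segment now named Ighv1-74. Genes of plasma cells also had their highest mean in pDC. Igha stood at 997 ± 563 CPM in pDC against 9.62 ± 0.888 in cDC1 and 18.3 ± 7.17 in cDC2. Igj stood at 344 ± 127 against 10.1 ± 1.36 and 22.8 ± 5.44, and Sdc1 at 47.9 ± 3.58 against 0.388 ± 0.118 and 1.15 ± 0.741. In pDC replicates 1, 2 and 3, Gm16710 stood at 8.78, 11.5 and 5.26 CPM. Igha stood there at 742, 1642 and 606, Igj at 219, 472 and 343 and Sdc1 at 50.4, 49.4 and 43.8. The 3 listed plasma cell genes found in the table summed to 992 to 2163 CPM in pDC and at most 53.0 elsewhere, and their part in the level of Ighv1-74 was not tested.

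The other 25 pDC genes lay between 2.08 and 7.15 CPM. They were B130046B21Rik, Gm13032, F630040L22Rik, 2700046G09Rik, 2810468N07Rik (Cerox1, a long non-coding RNA known to act on mitochondrial respiration), Gm5124, Gm12649, 2410004P03Rik, Gm11817, 2900041M22Rik, Gm12504, C530050E15Rik, 1700028J19Rik, Gm4759, Gm12503, A930024N18Rik, A430010J10Rik, Gm13031, Gm16174, Gm13594, Gm5914, Gm10392, A230005M16Rik, Gm17322 and 9030619P08Rik. A430010J10Rik, 78 kb from Gadd45a, was the one gene of the 79 with no count in any library of the other subsets, against 2.59, 2.69 and 2.81 CPM in pDC, so it was at least 19.4 times higher there than the floor of cDC1. In 14 of the 50, the next subset was at the floor, as it was in 1 cDC1 gene and 1 cDC2 gene. cDC2 was the next subset for 26 of the 50 and cDC1 for 24.

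**Figure D2:**
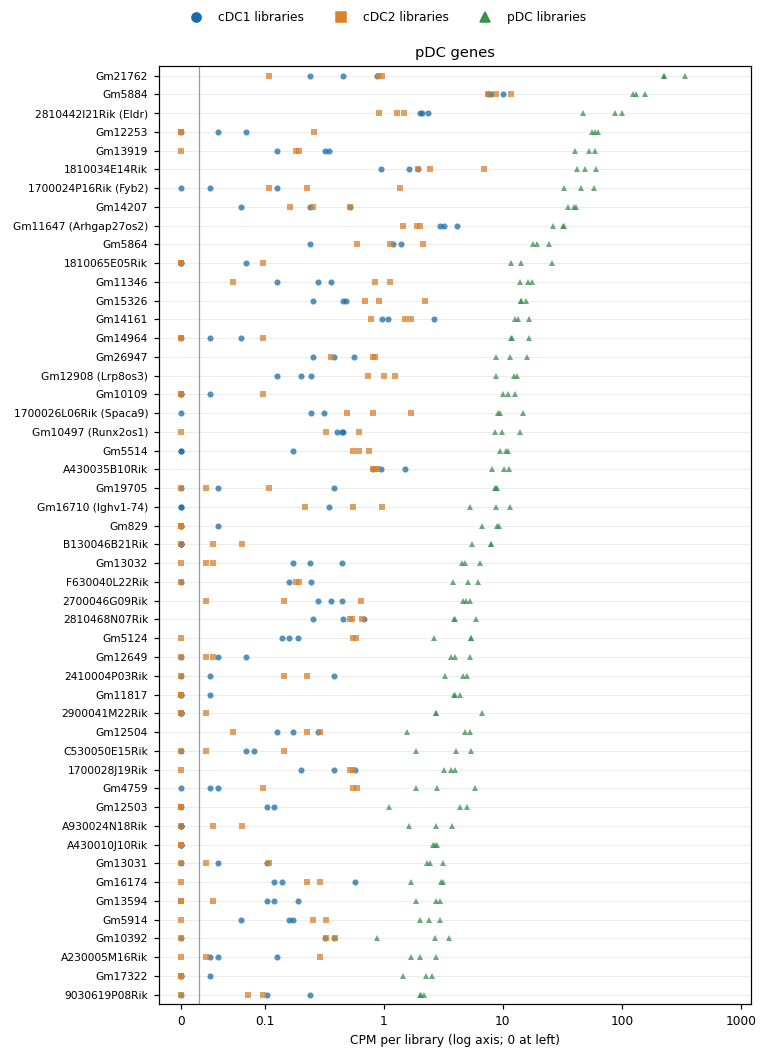
Level of each of the 50 pDC genes in every library, in CPM on a log axis with 0 drawn at the left edge; symbols as for the cDC genes. From Gm21762 (264 CPM on average) to 9030619P08Rik (2.08 CPM), the cDC1 and cDC2 libraries are intermingled in most rows.

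Near the 8-fold limit, the 2 genes just inside it in cDC1 were 1600029I14Rik (8.31 times) and Gm8221 (9.26), and the 2 just outside were Gm10425 (7.44) and 4930455G09Rik (7.17). In cDC2, Mcemp1 (8.83) and Gm4956 (9.43) lay inside and Gm15156 (7.73) and Gm12159 (7.65) outside. In pDC, 2810468N07Rik (8.0) and Gm4759 (8.41) lay inside and Gm26637 (7.68) and 6720427I07Rik (7.24) outside. Each list therefore ends in genes that a small change of the limit would add or remove.

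What kind of gene stands behind the names differed between the lists. GENCODE M21, the annotation of GRCm38 used here, holds 77 of the 79. It calls 3 of the 11 cDC1 genes protein-coding, 2 pseudogenes and 6 non-coding. Of the 18 cDC2 genes, 12 are called protein-coding, 4 pseudogenes and 2 non-coding. Of the 50 pDC genes, 8 are called protein-coding, 8 pseudogenes, 31 non-coding and 1 an immunoglobulin segment, and Gm5864 and F630040L22Rik were not matched. In GENCODE M21 or RefSeq, 22 of the 79 go by another name, among them 3 cDC1 genes, 9 cDC2 genes and 10 pDC genes. The types in the deposited table differ in places, as for A530099J19Rik, which the table lists as protein-coding and GENCODE M21 as a long intergenic RNA under the name Gpr141b, while RefSeq calls it protein-coding.

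Per kilobase of exon, a scale that allows genes of unequal length to be compared, the highest levels were 318 CPM per kb for Gm21762 in pDC, 298 for Gm8221 and 241 for Gpr141b in cDC1, and 100 for Gm6166 in cDC2. The medians were 36.1 CPM per kb in the cDC1 genes, 9.47 in the cDC2 genes and 5.47 in the pDC genes. The lowest was Gm4759 in pDC at 0.527 CPM per kb. On this scale the order of the cDC1 genes changed, since Gm8221 (1110 exon bases) came before Gpr141b (2764 exon bases) and Rab7b (110 CPM per kb, 4624 exon bases).

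For 27 of the 77 genes matched, more than 10% of the 75-base windows of their transcripts, the length of the reads, also occur in transcripts of another gene, while 37 share no window. Windows that overlap a gene on the opposite strand are counted here as shared. Reads from such windows cannot be told apart by sequence, and how the counting dealt with them is not given in the sources used here. Gm5884 shares 100% of its windows with Tom1, which stood at 3.51 ± 0.829 CPM (SD, n = 3) in pDC against 0.187 ± 0.0239 in cDC1 and 0.284 ± 0.106 in cDC2. The ratio of Gm5884 to Tom1 was 39.0 in pDC, 45.7 in cDC1 and 32.8 in cDC2, and from 29.3 to 55.8 in the single pDC libraries. Gm6166 shares 32.8% of its windows with Fabp5, which stood at 129 ± 29.2 CPM in cDC2 against 14.4 ± 4.09 in cDC1 and 7.97 ± 2.24 in pDC, and the ratio of Gm6166 to Fabp5 was 0.318, 0.279 and 0.305 in these subsets. Both genes thus stood in a similar ratio to their relative in each subset. Gm14328 (15.0% of windows shared with Fabp5) stood at 0.0371, 0.0253 and 0.0230 of Fabp5 in cDC2, cDC1 and pDC. Gm5514 (22.2% shared with Ldhb) stood at 0.106 of Ldhb in pDC, 0.119 in cDC2 and 0.0610 in cDC1, and Ldhb itself at 97.8 ± 5.70, 5.41 ± 0.131 and 0.954 ± 0.312 CPM.

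Ifit3b (35.7% shared with Ifit3) stood at 0.270 of Ifit3 in cDC2, 0.217 in cDC1 and 0.192 in pDC. Gm8221 (22.5%, Apol7c) stood at 0.302 of Apol7c in cDC1, 0.134 in cDC2 and 0.363 in pDC, and Apol7c at 1096 ± 244, 267 ± 78.1 and 9.53 ± 8.34 CPM. Gm21762 (73.4%) had D13Ertd608e as its relative, which stood at 53.7 ± 15.3 CPM in pDC against 0.298 ± 0.290 in cDC1 and 0.0895 ± 0.0986 in cDC2. Gm15925 (42.0%, Pirb) stood at 0.288 of Pirb in cDC2, 0.0390 in cDC1 and 0.00184 in pDC, while Pirb stood at 250 ± 5.08, 138 ± 8.0 and 231 ± 2.24 CPM. These 8 pairs were chosen after their values were seen, among the 27 genes with more than 10% of windows shared. In all 27, the relatives that were not called higher in the same subset or had too few counts for a test were Pirb, Med7, Necab1, Gm17641, Prkag1 and Gm26593 (edgeR, both contrasts).

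**Figure D3:**
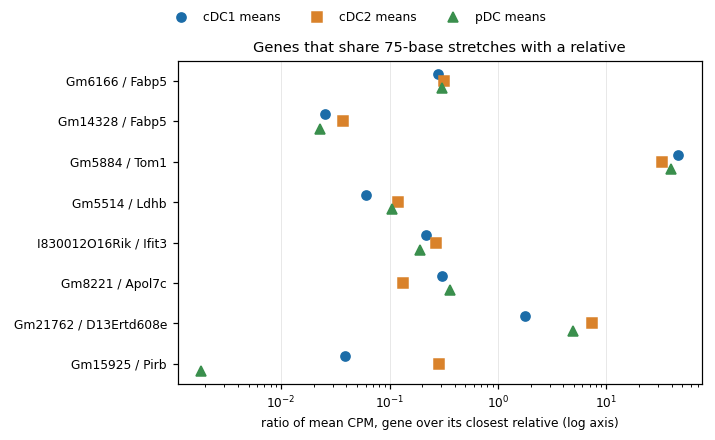
Ratio of the mean CPM of 8 Gm or Rik genes to that of the gene they share most sequence with, in cDC1 (circles), cDC2 (squares) and pDC (triangles), on a log axis. Gm6166 over Fabp5 lies between 0.279 and 0.318 in the 3 subsets, whereas Gm15925 over Pirb lies between 0.00184 and 0.288.

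Exons of 23 of the genes overlap exons of a gene on the opposite strand, 18 of them in pDC. The libraries keep the strand, but whether it was used in counting is not stated, so reads of such a pair may not be told apart. The 5 largest overlaps were those of Arhgap27os2 (75.9% of its exon bases lie over Arhgap27), Gm5914 (72.5%, Ctcf), Gm5124 (71.8%, Gm26593), Runx2os1 (65.5%, Runx2) and 2310031A07Rik (61.5%, Med7). Runx2os1 stood at 0.0178 of Runx2 in pDC, 0.0291 in cDC1 and 0.0114 in cDC2. 2310031A07Rik did not move with Med7, a subunit of the Mediator complex, which stood at 16.1 ± 1.56 CPM (SD, n = 3) in cDC1 against 21.0 ± 1.73 in cDC2 and 18.4 ± 1.48 in pDC, so that their ratio ran from 5.69 in cDC1 to 0.0292 in pDC.

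The protein-coding genes beside these genes were tested, since the choice did not use their counts. The nearest protein-coding gene with a regular name on each side gave 22 neighbours of the cDC1 genes, of which 19 had enough counts for a test, 34 of the cDC2 genes (24 tested) and 89 of the pDC genes (65 tested). A neighbour was called when it was higher in the same subset than in both others (edgeR's quasi-likelihood test, adjusted p under 0.05 in both contrasts). This held for 8 of 19 neighbours of the cDC1 genes (42.1%), where 7.70% of all 11970 protein-coding genes tested were called in that direction. It held for 8 of 24 neighbours of the cDC2 genes (33.3%, against 7.20% of all) and for 36 of 65 neighbours of the pDC genes (55.4%, against 17.6% of all). The median log2 fold change of the tested neighbours was 1.41 against cDC2 and 1.77 against pDC for cDC1 genes, 1.55 against cDC1 and 1.01 against pDC for cDC2 genes, and 1.41 against cDC1 and 1.24 against cDC2 for pDC genes, with medians of -0.03 to 0.03 over all protein-coding genes. Some neighbours overlap a Gm or Rik gene, and 18 of the 21 such neighbours of pDC genes were called. Without them, 6 of 16 (37.5%), 7 of 23 (30.4%) and 18 of 44 (40.9%) were called in cDC1, cDC2 and pDC.

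The called neighbours of cDC1 genes included Havcr2, which encodes the inhibitory receptor TIM-3 and begins 7687 bases from the start of 2310031A07Rik on the other strand. Havcr2 stood at 572 ± 123 CPM (SD, n = 3) in cDC1 against 258 ± 21.3 in cDC2 and 27.7 ± 5.95 in pDC, and was higher in cDC1 by 1.26 ± 0.179 on the log2 scale (± SE) against cDC2 (edgeR adjusted p = 6.75e-04) and by 4.45 ± 0.204 against pDC (edgeR adjusted p = 1.56e-07). Gm12551 shares 4.45% of its 75-base windows, and 22.6% of its windows of 31 bases, with its neighbour Plin2. Plin2, a coat protein of lipid droplets, stood at 235 ± 7.69 CPM in cDC1 against 45.4 ± 2.97 in cDC2 and 52.7 ± 5.89 in pDC. Itga8 (46.7 ± 8.06, 5.26 ± 1.88 and 0.166 ± 0.170 CPM in the same order) and Ltbp2 (34.7 ± 9.88, 3.62 ± 1.24 and 0.148 ± 0.173), which overlap E030013I19Rik and D030025P21Rik, were steeper. Lrrc3, Fam188a, Armc8 and Apol10b completed the 8, with 27.5, 63.7, 104 and 24.2 CPM in cDC1. The call of Apol10b against cDC2 was lost without cDC1 replicate 1 (adjusted p = 0.0669) or without cDC2 replicate 2 (adjusted p = 0.0620). Gpr141, the neighbour and namesake of Gpr141b, was not among them, at 39.1 ± 8.03 CPM in cDC1 against 120 ± 21.0 in cDC2 and 4.06 ± 3.90 in pDC.

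Beside the other abundant cDC1 genes, tested neighbours that were not called higher in cDC1 were Ctse, a cathepsin, at 19.2 CPM in cDC1 against 80.5 in pDC, Slc26a9 at 0.0116 and 1.18, Haus6 at 21.3 and 10.1, Jund at 180 and 240, Pde4c at 0.664 and 0.108, Tspear at 0.526 and 0.990, Tmem55a at 12.5 and 20.3, and Med7. Haus6 stood at 20.3 CPM in cDC2, close to its level in cDC1. Nme8, Apol11b and Necab1 had too few counts for a test. Over all tested neighbours of cDC1 genes, 3 were instead called higher in pDC than in both other subsets and 0 in cDC2.

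Among the neighbours of cDC2 genes, Ifit3 and Ifit1, which lie on either side of the pair Ifit1bl1 and Ifit3b on chromosome 19 and encode interferon-induced proteins, stood at 57.3 ± 2.20 and 25.2 ± 2.75 CPM (SD, n = 3) in cDC2, at 2.34 ± 0.489 and 1.78 ± 0.0942 in cDC1 and at 5.32 ± 1.70 and 2.33 ± 1.27 in pDC. Ifit3 was higher in cDC2 by 4.50 ± 0.266 (log2, SE) against cDC1 (edgeR adjusted p = 4.38e-06) and by 3.41 ± 0.248 against pDC (edgeR adjusted p = 2.99e-06). Sirpb1a, of the signal regulatory proteins, stood at 294 ± 11.7 CPM in cDC2 against 8.62 ± 3.84 in cDC1 and 1.26 ± 1.58 in pDC, and Sirpb1c, beside Gm5150, at 42.4 ± 5.16, 1.49 ± 0.814 and 1.80 ± 1.72. Gm9733, Gm5150, Sirpb1a and Sirpb1c, all in one stretch of chromosome 3, had their highest level in cDC2, as the choice and the call required. Cyp4f16, beside Cyp4f37, stood at 341 ± 6.16 CPM in cDC2 against 43.1 ± 4.54 in cDC1 and 30.9 ± 1.71 in pDC, and Pira2, an activating receptor gene beside Gm15925, at 31.4 ± 5.66, 5.35 ± 1.19 and 6.68 ± 1.23. Arap2, at 151 ± 32.6 CPM in cDC2, and Mical3, at 41.8 ± 20.1, were the remaining called neighbours. Several of these are relatives of the gene they flank, and Cyp4f37 shares 11.4% of its windows with Cyp4f16.

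Beside the most abundant cDC2 genes, the tested neighbours that were not called were Fcor at 2.22 CPM in cDC2 against 4.35 in pDC, Pirb, Car2 at 24.7 in cDC2 and 9.63 in cDC1, Scamp5 at 0.975 and 0.708, Aim2, a sensor of cytosolic DNA, at 83.5 and 65.7, BC094916 at 0.849 and 0.0600, and Ift80 at 13.8 and 8.28. Of these, Ift80 was higher in pDC, at 16.3 CPM, than in cDC2. Retn, Cyp4f40, Rpp25 and Il12a had too few counts. Of the tested neighbours of cDC2 genes, 2 were called higher in pDC and 1 in cDC1.

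The called neighbours of pDC genes included Runx2 and Klk1, which were already on the list of pDC identity genes. Klk1, tissue kallikrein, overlaps Gm10109 and lies 193 bases from 1700028J19Rik, and it stood at 967 ± 14.6 CPM (SD, n = 3) in pDC against 1.61 ± 0.634 in cDC1 and 2.81 ± 1.83 in cDC2. Runx2 stood at 606 ± 44.2, 14.9 ± 0.831 and 27.7 ± 3.78 CPM. Lrp8, a receptor for reelin and apolipoprotein E whose start lies 197 bases from that of Lrp8os3 on the other strand, stood at 319 ± 71.7 CPM in pDC against 6.15 ± 1.37 in cDC1 and 27.4 ± 5.67 in cDC2, and was higher in pDC by 5.59 ± 0.253 (log2, SE) against cDC1 (edgeR adjusted p = 1.49e-07). In these 3 loci the protein-coding gene and the Gm or Rik gene were high in the same subset, as the choice and the call required.

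Cmah, which hydroxylates sialic acid and lies 119 kb from Gm11346, was at 260 ± 70.7 CPM (SD, n = 3) in pDC against 1.36 ± 0.388 in cDC1 and 2.01 ± 0.511 in cDC2, and Gne, the enzyme that begins sialic acid synthesis and lies beside Gm12503 and Gm12504, at 168 ± 25.8, 27.2 ± 3.42 and 24.6 ± 6.25. Fam65b, within which Gm11346 and C530050E15Rik lie on the other strand, was at 199 ± 41.4 CPM in pDC against 11.4 ± 0.977 in cDC1 and 58.2 ± 12.1 in cDC2. The peptidylarginine deiminase genes, whose enzymes convert arginine to citrulline, flanked Gm13031 and Gm13032, with Padi2 at 392 ± 24.1, 58.1 ± 4.71 and 29.4 ± 5.95 CPM, Padi1 at 12.3 ± 2.56, 0.158 ± 0.0875 and 0.0231 ± 0.0201 and Padi3 at 1.80 ± 0.700, 0.110 ± 0.0983 and 0.0570 ± 0.0508. The Notch ligand genes Dll4 (23.3 ± 4.97, 0.197 ± 0.0792 and 1.64 ± 0.617 CPM, overlapping Gm14207) and Dll1 (8.87 ± 3.32, 0.161 ± 0.144 and 0.535 ± 0.715, overlapping A930024N18Rik) were both called higher in pDC, as was Egfr (43.8 ± 8.50, 1.51 ± 0.580 and 0.197 ± 0.174), 17.0 kb from Eldr.

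Nrxn2, the urate transporter gene Slc22a12 and the dendrin gene Ddn were at 30.5, 16 and 22.9 CPM in pDC and at most 0.108 on average in cDC1 or cDC2. Cobll1 (72.3 CPM in pDC), Ldlrad3 (60.2), Cdc14b (57.0), Aaed1 (72.7), Ak8 (46.4), Asph (144), Pqlc3 (253), Sema7a (145), Arhgap27 (197), Bmyc (120), Abhd15 (47.3), Trp53i13 (35.7), Lmf1 (57.6), Aldh1b1 (44.2), Fam120b (49.1), C8a (14.8), Gadd45a (6.37), Glcci1 (4.57), Sox8 (1.79), Pcbd1 (1.26) and Ctcf (185) were the others called. The smallest difference was that of Ctcf, the insulator protein gene, at 0.53 ± 0.150 (log2, SE) over cDC2 (edgeR adjusted p = 0.0153), and this call was lost without cDC2 replicate 3 (adjusted p = 0.0619) or pDC replicate 2 (adjusted p = 0.0535). The calls of Sox8, Glcci1 and Pcbd1 were also lost when single libraries were left out, with the highest adjusted p at 0.144 for Sox8 (without pDC replicate 3), 0.101 for Glcci1 (without cDC1 replicate 1) and 0.0720 for Pcbd1 (without cDC2 replicate 1). Sox8 was lost in most of these fits, namely without any one cDC1 library, cDC2 replicate 1 or 2, or pDC replicate 2 or 3. It was also lost with all libraries in limma-voom (limma-voom adjusted p = 0.0505). Glcci1 was lost without replicate 1 or 2 of cDC1 or of pDC.

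Around the 8 most abundant pDC genes, the tested neighbours not called were AF067061 at 0.508 CPM in pDC, Klrb1a at 0.421, Fbxo48 at 3.12 against 3.30 in cDC1, although its start lies 93 bases from that of Eldr, Commd9 at 16.4 against 15.5 in cDC1 and in cDC2, and Vps18 at 23.5 against 39.2 in cDC1. Tcstv1, Clec2h, Lypd8, Olfr30 and Prkaa2 had too few counts. Of the tested neighbours of pDC genes, 3 were called higher in cDC2 and 2 in cDC1.

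**Figure D4:**
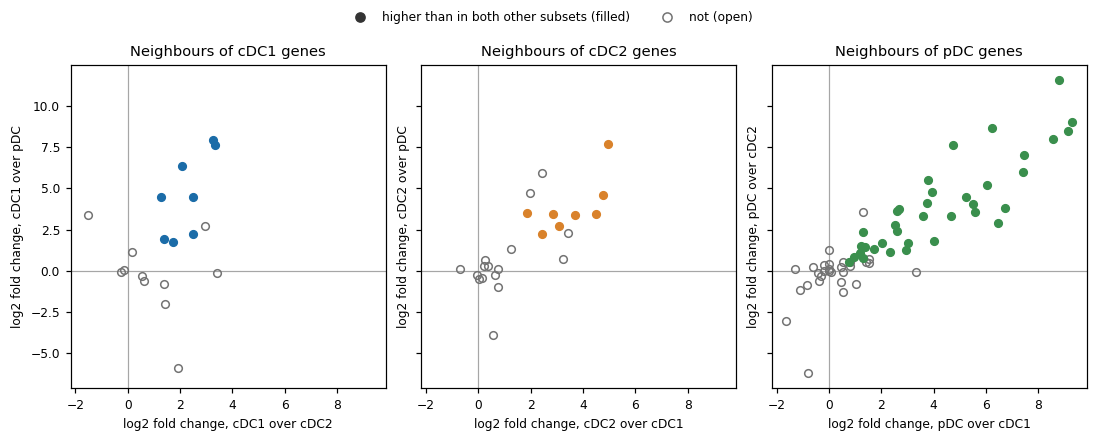
Log2 fold changes of the tested neighbours of the cDC1, cDC2 and pDC genes (19, 24 and 65 points), with the subset of the Gm or Rik gene over one other subset on the horizontal axis and over the remaining one on the vertical axis. Filled points (8, 8 and 36) were higher than in both other subsets at an adjusted p under 0.05, and open points were not.

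The levels of the 79 genes in the 2 subsets where each is low were capped by the choice, so they are described without a test. In 1 of the 11 cDC1 genes, 1 of the 18 cDC2 genes and 14 of the 50 pDC genes, every library of both low subsets was at the floor. Among the cDC1 genes, Gpr141b stood at 42.1 ± 13.1 CPM (SD, n = 3) in cDC2 against 3.43 ± 1.92 in pDC. Among the cDC2 genes, Gm15925 stood at 5.39 ± 1.38 CPM in cDC1 against 0.425 ± 0.403 in pDC, Mcemp1 at 13.7 ± 2.33 and 4.42 ± 1.73, and Ptgs2os2 at 0.444 ± 0.0797 and 0.0205 ± 0.0356, the last on 2 counts in pDC. Ifi206 lay the other way, at 0.926 ± 0.227 CPM in cDC1 against 2.14 ± 0.414 in pDC.

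Each level outside the high subset was also set as a percent of the gene's mean in its own subset. The median of the 11 cDC1 genes was 4.24%, 7.93% and 6.56% in cDC2 replicates 1, 2 and 3 and 1.15%, 0.281% and 0.0346% in pDC. The 0.0346% in pDC replicate 3, where 3 counts were 0.175 CPM, lies at the floor. The median of the 10 cDC1 identity genes was 6.00%, 9.25% and 8.99% in the same cDC2 libraries and 2.88%, 1.37% and 2.18% in pDC, with Cd8a, the marker of the sort, at 1.60% in cDC2 and 25.1% in pDC, and Xcr1, a chemokine receptor of cDC1, at 5.74% and 0.526%. In each of these libraries the median of the identity genes was above that of the Gm and Rik genes. The 8-fold limit capped the Gm and Rik genes outside cDC1 and not the identity genes, so the medians are not a like comparison.

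For the 18 cDC2 genes, the median was 5.84%, 4.86% and 4.40% in cDC1 and 2.50%, 1.22% and 2.58% in pDC, while that of the 9 cDC2 identity genes was 10.5%, 7.68% and 14.2% in cDC1 and 74.2%, 72.6% and 78.9% in pDC. For the 50 pDC genes it was 2.44%, 1.83% and 0.632% in cDC1 and 2.60%, 3.59% and 0% in cDC2. The median level of these genes in pDC was 7.72 CPM, so percents as small as those in replicate 3 mostly rest on 3 counts or fewer. There 3 counts were 0.190 CPM in cDC1 and 0.163 in cDC2, the libraries with the fewest counts in their subsets. The 11 pDC identity genes had medians of 2.61%, 2.00% and 2.34% in cDC1 and of 0.811%, 0.627% and 0.809% in cDC2, and ranged from 0.272% (Ly6d) to 24.8% (Irf7) over the mean of cDC2. Here too the 8-fold limit capped the Gm and Rik genes and not the identity genes. The part of other cells in these low levels was not tested.

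**Figure D5:**
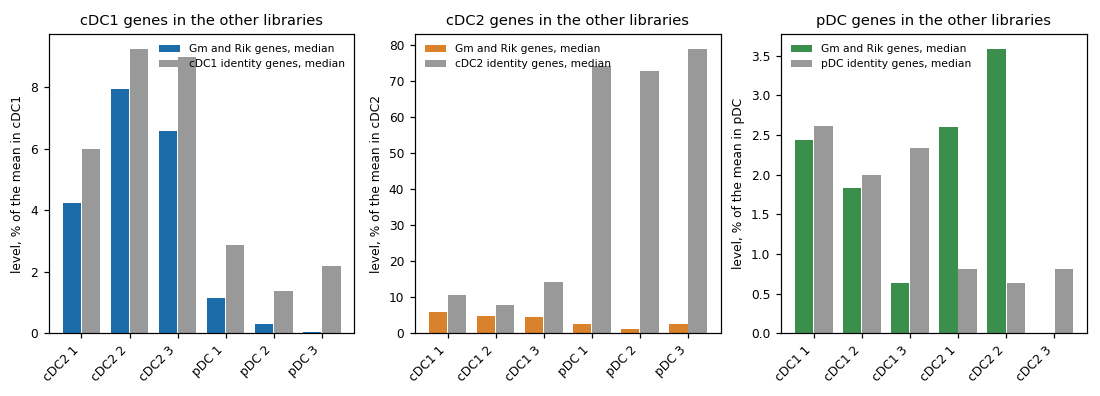
Median level of the cDC1, cDC2 and pDC genes in each library of the other subsets (coloured bars), as a percent of each gene's mean in its own subset, beside the median of the identity genes of that subset (grey bars). In cDC2 the cDC1 genes stand at 4.24% to 7.93% and the cDC1 identity genes at 6.00% to 9.25%, and in pDC the cDC2 identity genes stand at 72.6% to 78.9%. The 8-fold limit capped the Gm and Rik genes outside their own subset and not the identity genes.

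Within the high subset, the replicates of most of the genes lay within 2 times of each other. The highest library was 1.33 times the lowest at the median in the cDC1 genes, 1.41 times in the cDC2 genes and 1.47 times in the pDC genes, and it was under 2 times in 11 of 11, 16 of 18 and 39 of 50. In pDC, replicate 3 was the lowest of the 3 for 26 of the 50 genes and replicate 2 the highest for 25. Over genes of any name, the chi-square of the counts in pDC was 60.9 and 67.7 times its degrees of freedom for pairs with replicate 3. It was 19.8 times for replicates 1 and 2. Which replicate was lowest or highest was not counted over all genes, so whether this order is particular to these genes was not tested. Libraries with the same replicate number share a date code, and differences between these numbers were not tested.

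Some of the genes lie together. In cDC2, the pairs were Ifit1bl1 with Ifit3b and Gm9733 with Gm5150. In pDC they were Gm12253 with 1810065E05Rik, Gm10109 with 1700028J19Rik (2.39 kb apart), Gm12503 with Gm12504 (12.6 kb), Gm11346 with C530050E15Rik (27.0 kb) and Gm13032 with Gm13031 (130 kb). The members of these pairs, and neighbours counted for both, are not independent of each other.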

How the data were processed

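RNA from cDC1, cDC2 and pDC sorted from mouse spleen was sequenced in 3 libraries per subset, as single reads of 75 bases from stranded libraries of polyadenylated RNA. The authors deposited raw counts per gene in one table, without normalization. The submitters' processing notes name mm10, STAR, featureCounts, SAMtools and MultiQC. Their versions, the annotation and the strand setting are not given in the sources used here, and the paper's methods name Degust without a test. Libraries were grouped and numbered by their labels, and 0 columns were left out. The paired replicate numbers rest on the date code that same-numbered libraries share, and deviations from the subset means correlated by 0.403 on average (0.266 to 0.543 over 9 pairs).

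CPM were computed as counts over the total of each library. The genes and lists were chosen with earlier results of these data known. The 8 genes with the highest mean in each subset are given in every library, all others by mean or by name, and neighbours where called in the same direction or beside one of these 8. A planned test between the 2 low subsets of each gene was left out, because the choice capped both levels and the genes passed the count filter through the subset where they are high. Tests used edgeR 4.0.16 in R 4.3.3 on the counts, with TMM factors, filterByExpr at a minimum count of 10 (13819 genes kept), quasi-likelihood tests over all 9 libraries with the subset as the only term, and Benjamini-Hochberg adjustment over all genes tested. P-values measure the spread between these libraries, and no source says that each came from its own pool of mice. The fit was run beforehand on simulated data with 200 changed genes among those kept, and its outcome is not given here. Those counts were drawn independently with one spread for all genes. They held no difference shared by libraries of the same number, so the run cannot check the fit against such differences. Positions, exons and shared windows come from GENCODE M21 and promoters from RefSeq, both on GRCm38 (mm10). Alternatives were a replicate block, DESeq2 1.42.0, limma-voom (limma 3.58.1), library size only, no filter, other limits and each library left out. Figures were drawn with matplotlib 3.10.9.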

Additional observations from a re-analysis of the deposited data

How the results depend on the processing

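The number of genes in each list follows its limits. A 4-fold limit gave 18, 30 and 75 genes in cDC1, cDC2 and pDC, and a 16-fold limit 5, 7 and 33. A minimum mean of 5 CPM gave 28 genes in pDC, and asking the lowest library of the subset to be 8 times the highest of any other gave 7, 9 and 32. TMM-scaled CPM gave 13, 18 and 50, and leaving out each library in turn gave 11 to 14, 17 to 21 and 46 to 51. The count of called neighbours of pDC genes was 18 once neighbours that overlap a Gm or Rik gene were removed, which leaves fewer genes to test, and 32 to 37 when single libraries were left out. With the replicate block, 9, 10 and 40 neighbours were called in cDC1, cDC2 and pDC together with 9, 5 and 11 identity genes, so no count moved by more than 1.5 times. No direction of a called neighbour reversed under the alternatives that were run. Depth limits the 1 cDC1 gene, 1 cDC2 gene and 14 pDC genes whose next subset was at the floor of 3 counts per library. The alternatives planned for the test between low subsets were left out with it.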
